A study of Mus musculus with 36 samples.

Results

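The 9 genes described here, Clec4f, Vsig4, Cd5l, Timd4, Marco, Csf1r, Cd68, Ptprc and Cd74, are markers of Kupffer cells and of leukocytes in the liver. They were taken by gene symbol from the 24066 symbols that had 1 row each in the liver expression tables, and all 9 were found. Expression is given as FPKM, the fragments assigned to a gene, scaled to the length of its transcript and to the number of mapped fragments in the library. Tests were run on log2(FPKM + 1). Of all symbols, 13215 reached a mean of 0.1 FPKM and were tested, among them all 9 genes.

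The livers came from male wild-type C57BL/6JRj mice 16 weeks old, housed with 5 to a cage under 12 h of light, with lights on at ZT0. The chronic intermittent hypoxia (IH) group went through 60 cycles per hour between 21% and 5% inspired oxygen from ZT0 to ZT8, daily for 4 weeks. The control group received air cycles of the same timing. Livers of 3 mice were collected at each of 6 time points, every 4 h from ZT0 to ZT20, in both conditions, which gave 36 libraries of polyadenylated RNA, 18 per condition. The labels do not say which mice shared a cage. Each library held RNA of whole liver, so that fewer cells of a type and less RNA per cell cannot be told apart in any value given here.

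Kupffer cells are the resident macrophages of the liver. They sit in the sinusoids, where they clear particles, microbes, aged erythrocytes and dying cells from portal blood. They depend on signalling through the CSF1 receptor, and they carry a set of surface receptors that most other macrophages lack. Of the 9 genes, Clec4f encodes a C-type lectin used to identify Kupffer cells in the mouse, Vsig4 a complement receptor that binds C3 fragments, and Timd4 a receptor for phosphatidylserine on dying cells. Marco encodes a scavenger receptor, and Cd5l a secreted protein of macrophages that inhibits apoptosis. Csf1r encodes the receptor for Csf1 and Il34, and Cd68 a glycoprotein of lysosomes and endosomes in macrophages. Ptprc encodes CD45, the tyrosine phosphatase on the surface of all leukocytes, and Cd74 the invariant chain that accompanies MHC class II molecules to the endosome.

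One library stood apart before any comparison was made. The FPKM of control ZT12 replicate 2 summed to 808274, against 561964 to 626371 in the other 35 libraries, and its lowest correlation with a library of its own group was 0.949, against 0.978 or more in the other groups. All 9 genes had their highest value of the 36 libraries in it. For the main tests, correlations and control ranges of the 9 genes, values without this library are therefore given as well. Values for genes of other lists include it unless stated.

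Cd74 was the most abundant of the 9 genes, with a median of 31.8 FPKM over the 36 libraries. Below it came Clec4f at 11.0 FPKM and Cd5l at 10.8 FPKM, then Vsig4 at 5.55, Csf1r at 3.88, Cd68 at 3.12, Marco at 1.70, Timd4 at 0.752 and Ptprc at 0.589 FPKM. Cd74 exceeded Clec4f, and Cd5l exceeded Vsig4, in 36 of 36 libraries. Clec4f and Cd5l, next to each other in this order, were not separated, with Clec4f higher in 21 of 36 libraries. Cd68 exceeded Marco in 27 of 36 libraries, and Timd4 exceeded Ptprc in 29 of 36. FPKM is scaled to transcript length, which makes this order one of levels per length.

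Among the genes most specific to Kupffer cells, Clec4f ranged from 8.52 to 54.5 FPKM in control, with a median of 13.1 FPKM, and from 7.06 to 15.2 FPKM in IH, with a median of 10.1 FPKM. Vsig4 ranged from 3.69 to 15.3 FPKM around a median of 6.47 FPKM in control, and from 3.31 to 8.01 FPKM around 4.88 FPKM in IH. For both genes the IH median was below the control median, and the ranges overlapped. Cd5l ranged from 4.93 to 49.0 FPKM in control, with a median of 12.4 FPKM, and from 5.47 to 16.8 FPKM in IH, with a median of 9.25 FPKM. Timd4 ranged from 0.339 to 3.75 FPKM in control, with a median of 0.828 FPKM, and from 0.333 to 1.15 FPKM in IH, with a median of 0.641 FPKM. Without control ZT12 replicate 2, the highest control values were 20.2 FPKM for Clec4f, 10.1 FPKM for Vsig4, 20.5 FPKM for Cd5l and 1.57 FPKM for Timd4, each still above the highest IH value.

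Csf1r, the receptor gene, and Cd68 came next. Csf1r ranged from 2.77 to 12.3 FPKM in control (median 4.43 FPKM) and from 2.12 to 5.41 FPKM in IH (median 3.48 FPKM). Cd68 ranged from 2.25 to 14.6 FPKM in control (median 3.25 FPKM) and from 1.65 to 4.67 FPKM in IH (median 3.03 FPKM). For Marco, the most variable of the genes, the range was 0.567 to 40.8 FPKM in control and 0.440 to 7.54 FPKM in IH, and the medians were 1.81 and 1.63 FPKM. The medians of the leukocyte gene Ptprc lay close together, at 0.589 FPKM in control and 0.578 FPKM in IH, within ranges of 0.458 to 1.23 FPKM and 0.365 to 0.813 FPKM. Cd74 also had like medians, 31.8 FPKM in control and 32.0 FPKM in IH, within ranges of 25.7 to 109 FPKM and 22.4 to 66.3 FPKM. The highest control values without control ZT12 replicate 2 were 6.30 FPKM for Csf1r, 5.15 FPKM for Cd68, 7.40 FPKM for Marco, 0.792 FPKM for Ptprc and 69.0 FPKM for Cd74. For Marco and Ptprc these were below the highest IH value.

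**Figure D1:**
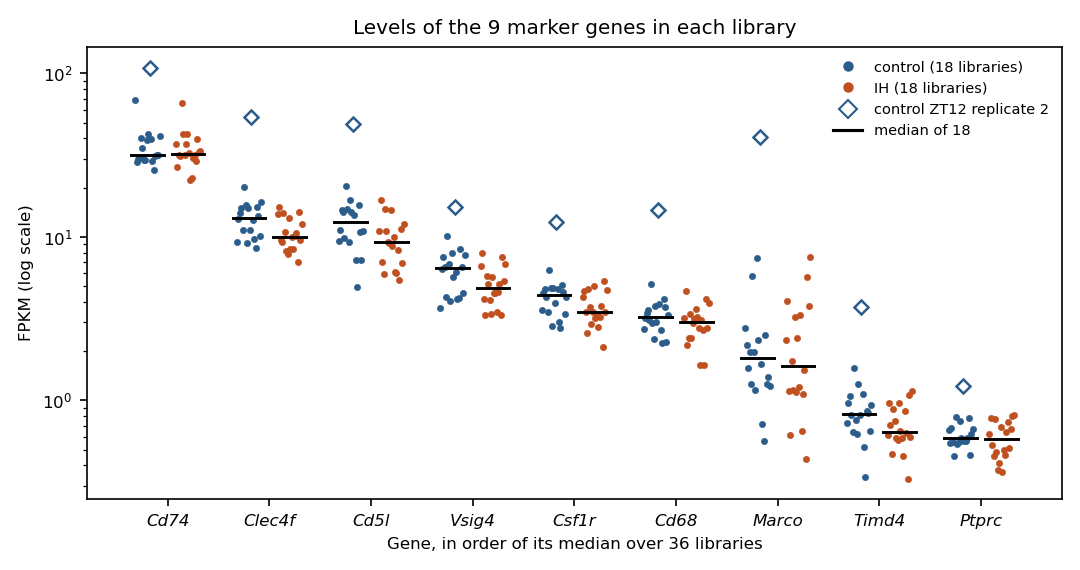
FPKM of each of the 9 genes on a log scale, with 1 point per library, 18 control (blue) and 18 IH (orange) libraries per gene, and bars at the median of each condition. Control ZT12 replicate 2, the open diamond, is the highest of the 36 libraries for every gene, and the medians range from 0.589 FPKM for Ptprc to 31.8 FPKM for Cd74.

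The 9 genes varied more between replicates than most genes did. The SD of log2(FPKM + 1) within groups of 3 was 0.32 for Clec4f, 0.37 for Vsig4, 0.45 for Cd5l and 0.58 for Marco over the 35 libraries without control ZT12 replicate 2. The median of all genes tested was 0.11 over the same libraries. For 8 of the 9 genes this SD was above that of at least 86.5% of the genes tested, with Timd4 at the low end and Marco above 98.8%. Ptprc was the exception, with an SD of 0.11 that exceeded 45.7% of genes.

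The start sites of a few of these genes are shown because the genes varied together across libraries, as described next. The stretches are the 250 bases before the annotated RefSeq start, from RefSeq on build GRCm38.p6, written 5′ to 3′ on the strand of the gene. Capitals mark the letters GGAAGT, a core shared by binding sites of the ETS factors, a family to which the macrophage factor PU.1, encoded by Spi1, belongs. Both strands were searched, for GGAAGT and ACTTCC. Vsig4 (chrX:96293439-96293688, minus strand) and Timd4 (chr11:46810549-46810798, plus strand) each held 1 match, and Marco (chr1:120505025-120505274, minus strand) and Cd5l (chr3:87357631-87357880, plus strand) held none.
Vsig4: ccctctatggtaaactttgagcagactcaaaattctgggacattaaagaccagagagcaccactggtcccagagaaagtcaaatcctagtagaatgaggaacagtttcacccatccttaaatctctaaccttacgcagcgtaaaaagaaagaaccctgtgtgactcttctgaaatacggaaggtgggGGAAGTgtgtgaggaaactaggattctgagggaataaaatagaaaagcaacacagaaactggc
Timd4: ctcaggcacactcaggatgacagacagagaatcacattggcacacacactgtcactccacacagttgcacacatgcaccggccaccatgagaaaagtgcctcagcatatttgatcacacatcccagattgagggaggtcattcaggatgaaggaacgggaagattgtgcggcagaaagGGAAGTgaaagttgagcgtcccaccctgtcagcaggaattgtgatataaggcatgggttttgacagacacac
Marco: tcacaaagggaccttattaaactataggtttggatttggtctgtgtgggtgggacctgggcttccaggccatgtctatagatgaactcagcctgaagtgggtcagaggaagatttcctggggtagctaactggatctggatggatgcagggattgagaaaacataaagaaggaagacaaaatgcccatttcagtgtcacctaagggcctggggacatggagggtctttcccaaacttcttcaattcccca
Cd5l: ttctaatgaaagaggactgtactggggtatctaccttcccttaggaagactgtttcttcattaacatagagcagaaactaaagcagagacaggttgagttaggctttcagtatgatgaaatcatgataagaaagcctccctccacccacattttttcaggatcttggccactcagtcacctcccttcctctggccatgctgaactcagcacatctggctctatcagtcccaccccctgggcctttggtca

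The match lay 63 bases before the start in Vsig4 and 72 bases before it in Timd4. Of the 7 genes with a window searched, 4 held a match (Clec4f, Ptprc, Timd4 and Vsig4), and 19.7% of 32851 windows of the same length did. The longer form GAGGAAGT, which contains the shorter one, or its reverse ACTTCCTC, was in none of the 7 genes and in 2.44% of windows. A match is a description of these letters and not of a bound site.

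Across libraries, the 9 genes fell into a close group, 2 genes at its edge and 1 gene apart. Over the 35 libraries without control ZT12 replicate 2, the Pearson correlation of log2(FPKM + 1) was 0.94 between Clec4f and Vsig4, 0.91 between Clec4f and Csf1r and 0.90 between Vsig4 and Csf1r. Clec4f, Vsig4, Csf1r, Cd5l, Timd4 and Cd68 all correlated with each other by 0.79 or more. Marco correlated with these 6 genes by 0.53 to 0.70, and Ptprc by 0.43 to 0.64. Cd74 stood apart, with correlations of 0.10 to 0.33 with the 8 other genes. These values describe libraries that share time points and conditions, and they carry no test. With control ZT12 replicate 2 included, Cd74 correlated with the others by 0.41 to 0.65.

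**Figure D2:**
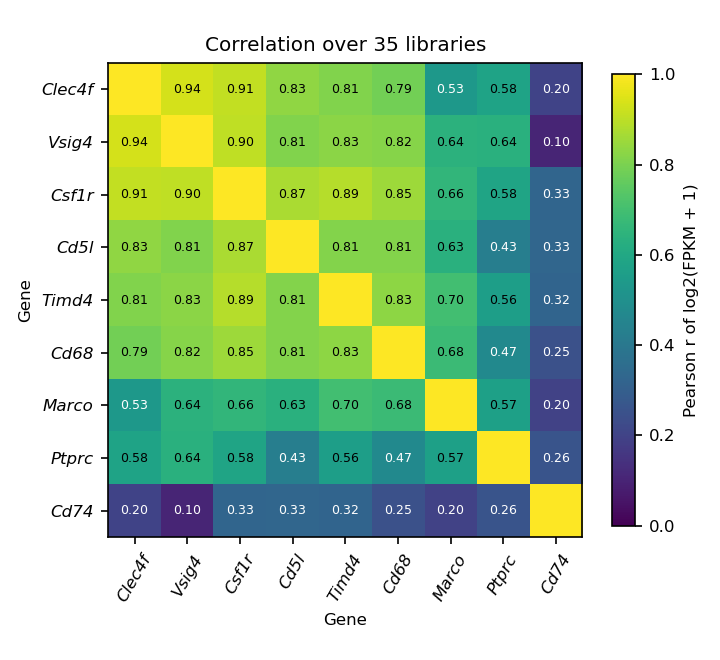
Pearson correlation of log2(FPKM + 1) between each pair of the 9 genes over the 35 libraries without control ZT12 replicate 2, with genes on both axes and the value in each cell. Clec4f, Vsig4, Csf1r, Cd5l, Timd4 and Cd68 form a block at 0.79 or more, and the row of Cd74 lies between 0.10 and 0.33.

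The genes most like each of the 9 were named by the highest Pearson correlation over the 36 libraries, among genes that averaged 1 FPKM or more. For Clec4f these were C1qb (r = 0.96), Csf1r (0.95) and C1qa (0.94), where C1qa, C1qb and C1qc encode the chains of complement component C1q, made by macrophages. Csf1r was closest to C1qc, C1qb and C1qa (each r = 0.96), and Vsig4 to Clec4f (0.93), C1qc and Csf1r (each 0.92). For Timd4 they were C1qa, C1qb and Spi1 (each 0.94), and for Cd5l they were Csf1r, Sdc3 (each 0.92) and Ucp2 (0.90). Cd68 was closest to Tyrobp (0.94), an adaptor of myeloid receptors, then to Wfdc17 and C1qb (each 0.93). These correlations include control ZT12 replicate 2, and some of the nearest genes changed without it. Over the other 35 libraries the 3 genes closest to Clec4f were Vsig4 (0.94), Csf1r and Axl (each 0.91), and those closest to Vsig4 were Clec4f (0.94), C1qc (0.91) and C1qb (0.90). For Csf1r they were the 3 C1q genes again (0.93 to 0.94). For Cd5l they were Sdc3, Lgmn (each 0.88) and Csf1r (0.87), for Timd4 they were Spi1, Csf1r and Lyz2 (each 0.89), and for Cd68 they were Tyrobp, C1qc (each 0.86) and Csf1r (0.85).

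Marco was closest to Siglece (0.91), a sialic acid receptor of myeloid cells, then to Cfp (0.89), which encodes properdin, and Wfdc17 (0.87). Ptprc was closest to Cfp, Ly86 (each 0.81) and Adgre1 (0.80), which encodes F4/80. Over the other 35 libraries, Marco was closest to Siglece (0.82), Cfp (0.79) and Lyz2 (0.78), and Ptprc to the same 3 genes as before (0.71 to 0.74). The genes closest to Cd74 were those of the MHC class II chains it accompanies, H2-Eb1 and H2-Ab1 (each 0.93) and H2-Aa (0.89). Without control ZT12 replicate 2, the same 3 genes remained the closest to Cd74, at 0.96, 0.95 and 0.94. Set against its label, the list thus held 6 genes that varied closely with each other and with other macrophage genes. Marco and Ptprc also had macrophage genes among their closest, at lower correlations over the 35 libraries. Cd74 varied with MHC class II genes.

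Whether IH changed the level of these genes was first tested over all 6 time points, with the time point as a factor in limma and adjustment over the 13215 genes. None of the 9 genes passed an adjusted p of 0.05, a threshold that 47 genes, 0.356% of those tested, passed, 0.0530% with a lower level in IH. The largest differences were in Cd5l, at -0.40 ± 0.17 (SE) on the log2(FPKM + 1) scale (95% interval -0.75 to -0.05, adjusted p = 0.37), and in Clec4f, at -0.36 ± 0.15 (-0.67 to -0.06, adjusted p = 0.36). Vsig4 followed at -0.29 ± 0.13 (adjusted p = 0.41). On this scale IH stood at 0.757 times control for Cd5l, 0.778 times for Clec4f and 0.815 times for Vsig4. These are ratios of FPKM + 1, which makes the differences of low genes such as Timd4 and Ptprc smaller. Cd5l, Clec4f and Vsig4 had an unadjusted P under 0.05, as did 10.8% of all genes, and 2.34% with a lower level in IH. Without control ZT12 replicate 2, 2 of the 9 genes had such a P, as did 13.0% of all genes. The differences of the other genes ran from -0.22 in Csf1r, -0.21 in Cd68 and -0.18 in Timd4 and Marco to -0.13 in Cd74 and -0.05 in Ptprc (adjusted p = 0.49 to 0.84).

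The estimate lay below 0 for 9 of 9 genes, and for 31.5% of all genes tested. The 9 genes are not independent of each other, given the correlations above, and share the 36 livers. Their median was -0.21, and that of all genes was 0.03. Without control ZT12 replicate 2 the estimate was -0.24 for Clec4f (95% interval -0.44 to -0.04), -0.22 for Vsig4, -0.29 for Cd5l and 0.04 for Marco. Those of Csf1r, Cd68, Timd4, Cd74 and Ptprc also moved toward 0, to -0.14, -0.10, -0.10, -0.04 and -0.02. By then 8 of 9 genes lay below 0 with a median of -0.10, against 37.8% of all genes, and again none passed the adjusted threshold, which 1.19% of genes passed. The interval of Marco, -0.39 to 0.48 without that library, was the widest of the 9.

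**Figure D3:**
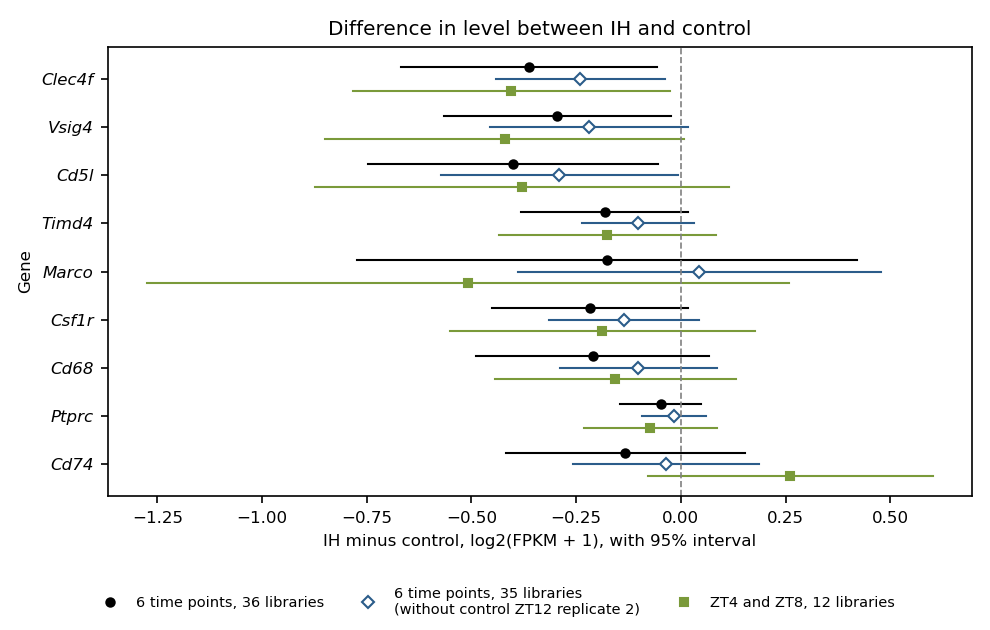
Difference in level between IH and control for each of the 9 genes on the log2(FPKM + 1) scale, with 95% intervals, over 6 time points with 36 libraries (black circles) and with 35 libraries (blue diamonds), and at ZT4 and ZT8 with 12 libraries (green squares). Without control ZT12 replicate 2 the estimates of all 9 genes move up, and that of Marco moves from -0.18 to 0.04.

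At ZT4 and ZT8, the time points within and at the end of the daily exposure, the 12 libraries were compared in the same way. Clec4f ranged from 9.20 to 20.2 FPKM in the 6 control libraries, with a median of 15.1 FPKM, and from 7.91 to 14.0 FPKM in the 6 IH libraries, with a median of 9.96 FPKM. The medians of Vsig4 were 4.63 FPKM in IH and 6.66 FPKM in control. The ranges overlapped for both genes. Vsig4 differed by -0.42 ± 0.20 (adjusted p = 0.19) and Clec4f by -0.40 ± 0.17 (adjusted p = 0.16). Marco differed by -0.51 ± 0.35 (adjusted p = 0.37) and Cd5l by -0.38 ± 0.23 (adjusted p = 0.30). Single libraries weighed on these sizes: without control ZT4 replicate 3 the difference was -0.28 in Marco, -0.09 in Csf1r, -0.09 in Timd4, -0.06 in Cd68 and -0.04 in Ptprc, and without IH ZT4 replicate 1 it was -0.22 in Cd5l. None of the 9 genes passed, while 7.98% of all genes did and 1.93% passed with a lower level in IH. The estimate was below 0 for 8 of 9 genes and for 35.1% of all genes.

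Cd74 was the gene whose estimate lay above 0 at ZT4 and ZT8. Its 6 control libraries ranged from 29.4 to 40.1 FPKM with a median of 32.7 FPKM, and its 6 IH libraries from 31.4 to 66.3 FPKM with a median of 39.8 FPKM. The difference was 0.26 ± 0.16 (95% interval -0.08 to 0.60, adjusted p = 0.30). The MHC class II chain genes had estimates of like size, 0.28 for H2-Aa and H2-Ab1 and 0.26 for H2-Eb1 (adjusted p = 0.26 to 0.29). None of these genes passed the test. The highest value of Cd74 in IH, 66.3 FPKM, was that of IH ZT4 replicate 2, and without this library the difference was 0.13.

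Genes of the same pathway and cell types were set beside the 9 genes by lists chosen with earlier results of these data known. Of 17 other genes of resident macrophages, 0 passed over all time points and 0 at ZT4 and ZT8. Their estimates lay below 0 for 16 of 17 over all time points, with a median of -0.24, and for 14 of 17, with a median of -0.10, without control ZT12 replicate 2. Among them C1qa differed by -0.37 (adjusted p = 0.45), Mpeg1, a pore-forming protein of macrophages, by -0.46 (adjusted p = 0.30) and Folr2, a folate receptor of resident macrophages, by -0.35 (adjusted p = 0.35). Slc40a1, the iron exporter ferroportin, was the gene above 0, at 0.28 (adjusted p = 0.53). Of 6 acute phase genes, 6 estimates were below 0 in both comparisons, and none passed. The medians of these genes were -1.09 over all time points (-0.71 without control ZT12 replicate 2) and -1.62 at ZT4 and ZT8. Of 5 neutrophil genes, 5 estimates were below 0 over all time points (4 without that library) and 4 at ZT4 and ZT8. Their part in the differences of the 9 genes was not tested.

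Ligands of the CSF1 receptor showed no called difference. Mean levels of Csf1 were 2.64 FPKM in IH and 2.74 FPKM in control, and those of Il34 were 0.859 and 0.844 FPKM. The transcription factor gene Spi1, which encodes PU.1, differed by -0.21 (adjusted p = 0.54). Of the 9 genes in this list, 0 passed in either comparison, and 5 estimates over all time points lay below 0. Of 6 genes of MHC class II antigen presentation tested, 0 passed, with 6 estimates below 0 over all time points and 1 at ZT4 and ZT8.

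Calls in other lists stand beside 0.356% of all genes that passed over all time points and 7.98% that passed at ZT4 and ZT8. The lists were not tested as sets. Of 9 further genes of all leukocytes, Coro1a, an actin regulator of leukocytes, was higher in IH at ZT4 and ZT8 by 0.26 (adjusted p = 0.030), and the other 8 did not pass. Of 4 T cell genes tested, Cd3g, a chain of the T cell receptor complex, was higher in IH by 0.22 (adjusted p = 0.018) at a mean level of 0.199 FPKM. None of 3 B cell genes, 1 NK cell gene, 5 neutrophil genes, 5 monocyte genes, 3 dendritic cell genes and 5 genes of macrophage activation and cytokines passed in either level test. Of 8 sinusoidal endothelial genes, Lyve1, a hyaluronan receptor, was higher over all time points by 0.31 (adjusted p = 0.018) and Stab1, a scavenger receptor, at ZT4 and ZT8 by 0.24 (adjusted p = 0.040). Of 5 hepatocyte genes, Apoa1 was higher at ZT4 and ZT8 by 0.34 (adjusted p = 0.012). None of 6 stellate cell genes and 4 cholangiocyte genes passed.

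Time courses were tested with a cosine of 24 h fitted in each condition, and a gene was called rhythmic at a nominal P of 0.01 or less. In control, none of the 9 genes was called, while 20.0% of all genes were. The smallest P in control was 0.13, for Cd5l, and without control ZT12 replicate 2 it was 0.067 for the same gene, with 27.1% of all genes called. No gene of the 9 reached an unadjusted P under 0.05 in control, where 34.8% of all genes did. In IH, Ptprc was called (P = 0.0076, adjusted p = 0.020, n = 18 libraries), 1 of 9 genes, while 39.9% of all genes were. Vsig4 (P = 0.019, n = 18 libraries) and Clec4f (P = 0.023) came next, so that 3 of the 9 genes had a P under 0.05 in IH, as did 55.6% of all genes.

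Of the 17 other resident macrophage genes 0 were called rhythmic in either condition, and of 6 MHC class II genes 0 were. Of the 9 further leukocyte genes 0 were called in control, where 20.0% of all genes were. In IH, where 39.9% of all genes were called, 6 of these 9 were, namely Cd52, Laptm5, Coro1a, Arhgdib, Itgb2 and Lcp1. The interaction test called none of these genes, so a difference in rhythm between the conditions was not shown for them. Lcp1, at a mean of 18.2 FPKM, was at 0.576 times the median of the other 35 libraries in control ZT12 replicate 2. All other genes of its list were above their median there.

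Ptprc in IH was 0.625, 0.776 and 0.531 FPKM at ZT0 and 0.458, 0.768 and 0.485 FPKM at ZT4. At ZT8 it was 0.376, 0.416 and 0.692 FPKM, and at ZT12 it was 0.365, 0.495 and 0.465 FPKM. At ZT16 it was 0.641, 0.736 and 0.514 FPKM, and at ZT20 it was 0.670, 0.802 and 0.813 FPKM. The lowest levels thus fell at ZT8 and ZT12 and the highest at ZT20, with single libraries out of line at ZT4 and ZT8. The fitted maximum was at 21.1 h, with an amplitude of 0.13 on the log2(FPKM + 1) scale. The call was lost, with P from 0.010 to 0.022, when any of 11 of the 18 IH libraries was left out: ZT0 replicate 2, ZT4 replicate 3, ZT8 replicates 1 and 2, each of ZT12, ZT16 replicate 1 and each of ZT20. It was lost as well with a spread shared by both conditions (P = 0.017, n = 36 libraries). That spread included control ZT12 replicate 2. An F test over the 6 time points did not call Ptprc either.

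The fitted maxima in IH lay at 22.3 h for Vsig4, 23.9 h for Clec4f, 21.3 h for Marco and 23.0 h for Timd4, and at 0.01 h for Csf1r and 0.06 h for Cd68. Those of Cd5l and Cd74 were at 2.95 h and 2.94 h. Since the fits of these 8 genes did not pass the threshold, the times are descriptions. The difference between the time courses of IH and control was tested as an interaction over all 36 libraries. None of the 9 genes passed (adjusted p = 0.92 for each), and 0 of the 13215 genes did. At an unadjusted P under 0.05 the limma test gave 1 of the 9 genes, Ptprc (P = 0.028, n = 36 libraries), and 4.91% of all genes. Once control ZT12 replicate 2 was left out, that gene was Marco (P = 0.047, n = 35 libraries), with a P of 0.050 for Ptprc and 5.58% of all genes. When time was entered as a factor of 6 levels, the interaction again called 0 of the 9 genes.

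**Figure D4:**
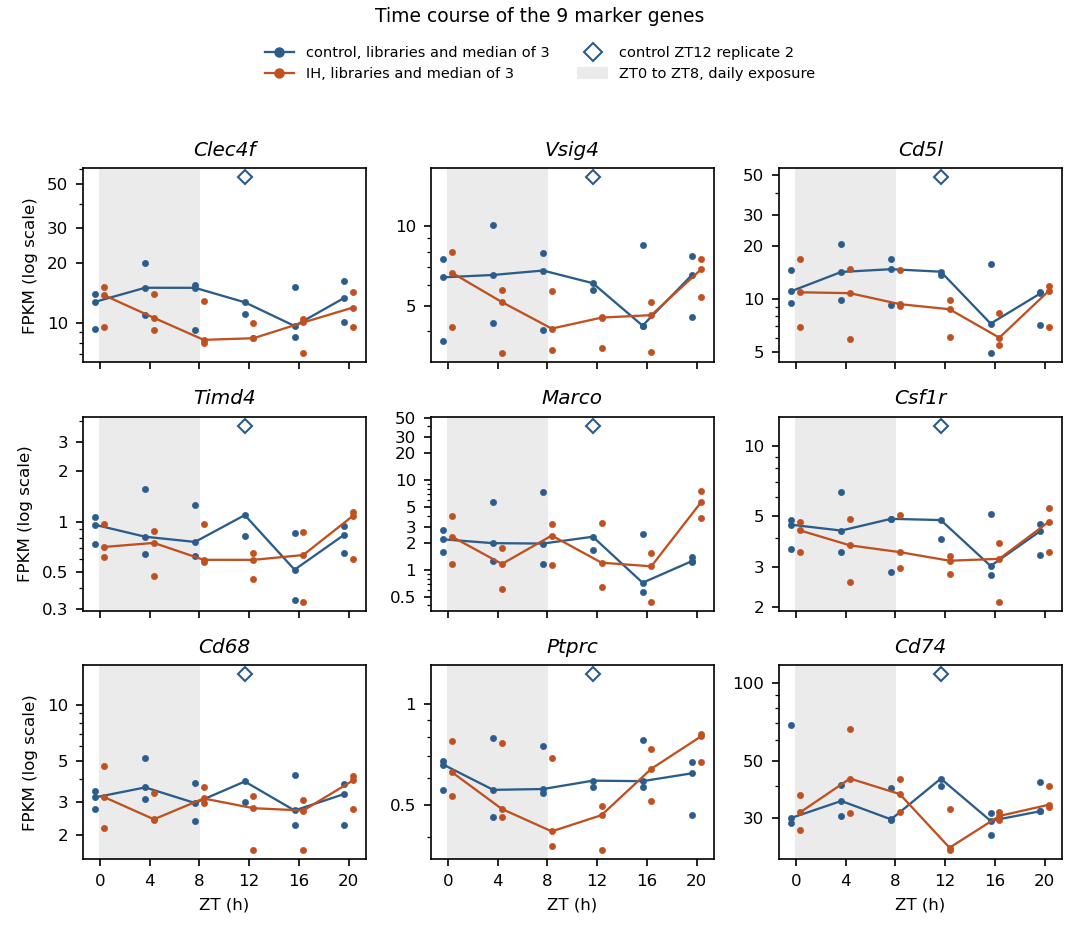
FPKM of the 9 genes (log scale) against ZT in hours, with points for the single libraries, lines through the median of 3 at each time point, control in blue and IH in orange, and grey over ZT0 to ZT8, the hours of daily exposure. The open diamond is control ZT12 replicate 2. The IH medians of Marco and Ptprc are highest at ZT20, at 5.68 and 0.802 FPKM.

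At single time points, IH and control were compared in 1 fit of the 12 groups, a test added after the data were seen. None of the 9 genes passed an adjusted p of 0.05 at any of the 6 time points, with or without control ZT12 replicate 2. Of all genes, 1.16% passed at ZT4, 0.772% at ZT12, 0.00757% at ZT8 and at ZT16, and 0% at ZT0 and ZT20. Without that library 6.05% passed at ZT4, 0.0605% at ZT0, 0.0227% at ZT16, 0.00757% at ZT8 and 0% at ZT12 and ZT20. At ZT0, ZT4, ZT8 and ZT16 the 3 IH and 3 control libraries overlapped for each of the 9 genes. Of all genes, 4.59%, 26.7%, 11.0% and 10.0% had the IH libraries above control at these times, and 6.21%, 7.79%, 7.16% and 3.84% had them below.

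Marco at ZT20 had no overlap between the conditions. Its values were 5.68, 3.77 and 7.54 FPKM in IH and 1.26, 1.38 and 1.23 FPKM in control, so every IH library was above every control library. The difference was 1.50 on the log2(FPKM + 1) scale (95% interval 0.16 to 2.84), with an adjusted p of 1 in the limma fit of 36 libraries and of 0.35 without control ZT12 replicate 2. Ptprc was the other gene at ZT20 without overlap, at 0.6701, 0.802 and 0.813 FPKM in IH against 0.465, 0.621 and 0.6697 FPKM in control, with next to no gap between the groups. These 2 of 9 genes stand beside 11.8% of all genes whose IH libraries were all above control at ZT20, and 4.18% were all below. An F test of time as a factor of 6 levels called 1 of the 9 genes in IH, Marco (P = 0.0058, n = 18 libraries), and 39.7% of all genes, and the IH medians of Marco at the other time points ran from 1.09 to 2.41 FPKM.

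At ZT12 the IH libraries lay below the control libraries for 7 of 9 genes (Clec4f, Vsig4, Cd5l, Timd4, Csf1r, Ptprc and Cd74), as they did for 6.74% of all genes, with 6.34% above. Clec4f was 8.39, 10.0 and 8.41 FPKM in IH and 11.1, 54.5 and 12.8 FPKM in control. Cd5l was 8.76, 9.92 and 6.13 FPKM in IH and 14.3, 49.0 and 13.7 FPKM in control. Cd74 was 32.4, 22.4 and 22.9 FPKM in IH and 42.6, 109 and 39.8 FPKM in control. The highest control value of each gene is that of the library that stood apart.

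Against the other 2 control libraries the 3 IH libraries were still below for the same 7 genes, where 19.0% of all genes met this weaker condition. The difference at ZT12 was -1.08 for Clec4f, -1.30 for Cd5l and -1.13 for Cd74 (adjusted p = 0.089, 0.078 and 0.059) with all 36 libraries. Without control ZT12 replicate 2 it was -0.38, -0.72 and -0.67 (adjusted p = 0.56, 0.43 and 0.30). For Marco, whose libraries overlapped at ZT12, it went from -1.52 to -0.25, and for Ptprc from -0.30 to -0.13.

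The library that stood apart, control ZT12 replicate 2, held the genes of macrophages at several times their usual level. Marco was 40.8 FPKM there, 24.5 times the median of the other 35 libraries, and the highest value in those 35 was 7.54 FPKM. Timd4 was 5.02 times that median, Clec4f 4.96 times, Cd68 4.72 times and Cd5l 4.55 times. Cd74 was 3.42 times, Csf1r 3.23 times, Vsig4 2.83 times and Ptprc 2.10 times the median. The 9 of 9 genes highest in this library compare with 14.5% of all genes tested. All 9 were above 2 times their median, as were 7.67% of the 13050 genes with a median of 0.1 FPKM or more, and all 9 were the highest of the 3 control libraries of ZT12, as were 27.7% of genes.

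Other lists moved with it in part. Of the 17 other resident macrophage genes 14 were highest of the 36 libraries in it, with a median ratio of 3.94, and of the 9 further leukocyte genes 7 were, with a median ratio of 3.19. All 6 neutrophil genes listed on 1 row were, among them S100a8 at 106 FPKM against a median of 0.473 FPKM and S100a9 at 97.3 FPKM against 0.537 FPKM. Among monocyte genes 4 of 5 were highest, with Ly6c2 at 12.7 times. Of 7 MHC class II genes 1 was highest, Ctss, a lysosomal protease, and H2-Aa, H2-Ab1 and H2-Eb1 reached 1.70 to 2.19 times the median. None of 6 T cell genes, 6 dendritic cell genes and 8 sinusoidal endothelial genes was highest, and the endothelial receptor Kdr was at 0.138 times the median, 0.376 FPKM against 2.72 FPKM.

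**Figure D5:**
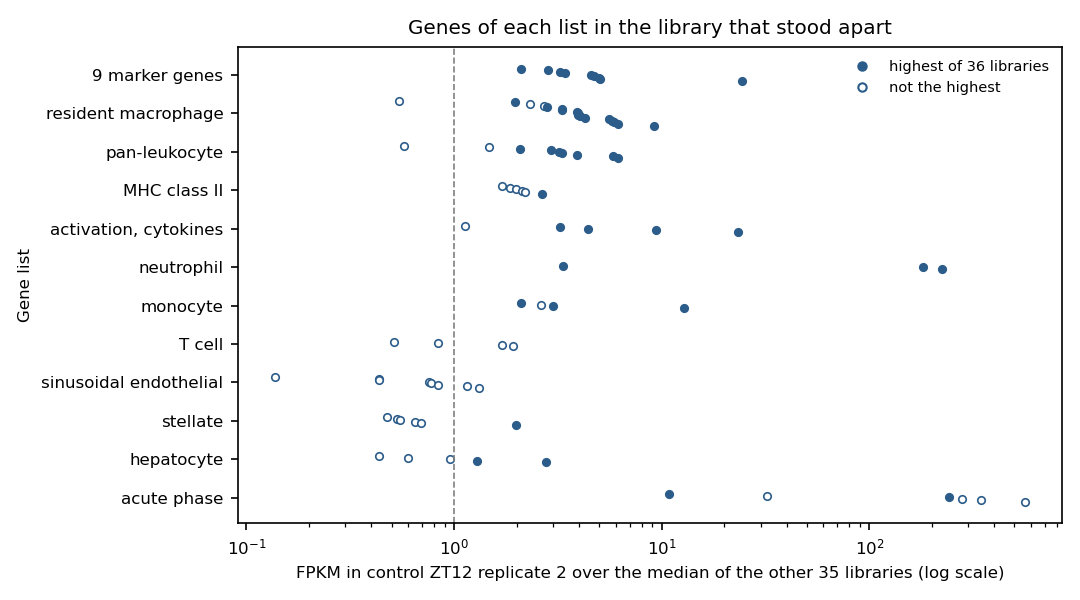
Ratio of FPKM in control ZT12 replicate 2 to the median of the other 35 libraries (log scale), with 1 point per gene for the 9 marker genes and 11 other lists, filled where this library was the highest of 36. Genes whose median was under 0.1 FPKM are not drawn. The 9 marker genes lie between 2.10 and 24.5, all filled, and the sinusoidal endothelial genes between 0.138 and 1.31, all open.

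Transcript length moved with this library too. The median ratio to the other libraries was taken over genes whose median in those libraries was 1 FPKM or more. It was 1.26 in the shortest of 5 equal classes of exonic length and fell to 0.845, 0.724, 0.646 and 0.584 in the longer classes. The 9 genes exceeded the median ratio of their own class, though Timd4 and Ptprc, at medians of 0.747 and 0.588 FPKM, were below that floor. Only 0.320% of the genes in its class had a larger ratio than Marco and 0.481% a larger one than Clec4f, and for Vsig4, the least extreme, 7.15% did. The acute phase gene Saa1 was at 20546 FPKM in this library, against a median of 73.4 FPKM. The part of neutrophil, acute phase and length differences in the high values of the 9 genes was not tested.

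Saa1 was above 10000 FPKM in 2 other libraries. In control ZT16 replicate 3 (12912 FPKM) 9 of 9 genes had the highest value of the 3 replicates, as did 24.9% of all genes. In IH ZT0 replicate 2 (22865 FPKM) 8 of 9 did, as did 23.4% of all genes. Clec4f was 15.3 FPKM in the first against 9.69 and 8.52 FPKM in its fellow replicates, and 15.2 FPKM in the second against 13.8 and 9.56 FPKM. A library with little Saa1, IH ZT4 replicate 2 (72.1 FPKM), also had 9 of 9 genes at the top of its 3 replicates, with Clec4f at 14.0 FPKM against 9.28 and 10.6 FPKM. Without the 3 libraries of high Saa1, the level over all time points called none of the 9 genes and 1.38% of all genes. The estimates were then -0.24 for Clec4f, -0.21 for Vsig4, -0.28 for Cd5l, -0.12 for Csf1r, -0.11 for Cd68, -0.10 for Timd4, -0.02 for Ptprc and -0.004 for Cd74.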

How the data were processed

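Liver RNA of 36 mice was analysed, 18 under IH and 18 in control. Per the labels, polyadenylated RNA was made into strand-specific libraries and sequenced as paired reads. The submitters' processing notes name TopHat2 2.1.1, Cufflinks 2.2.1 and the mm10 genome. The authors deposited FPKM values per gene symbol, IH and control in separate tables. Column names were identical in both, so the condition was taken from the name of the table (IH, or NO for normoxia). Without counts, depth is unknown, and so is the counting error of low genes such as Ptprc and Timd4. All columns were used.

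Of 24346 symbols, 280 on several rows were left out. Values were analysed as log2(FPKM + 1) with limma 3.58.1 (intensity trend) in R 4.3.3 for the 13215 genes averaging 0.1 FPKM or more over the 36 libraries, with Benjamini-Hochberg adjustment over all of them. The pseudocount of 1 FPKM makes fold changes of low genes smaller. Level was tested with the time point as a factor, rhythm with a moderated F test of a 24-h cosine, and the difference in rhythm as an interaction. Cyber-T and BIO_CYCLE, used in the study, were not used here. The scripts were tested on simulated data. Exonic lengths came from GENCODE on mm10 and upstream sequences from RefSeq on GRCm38.p6. Python 3.11.15 with matplotlib 3.10.9 drew the figures.

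The 9 genes and the gene lists were chosen with earlier results of these data known. Named genes were the 9 genes, genes of the lists, and the 3 genes of mean 1 FPKM or more that correlated best with each of the 9. Alternatives were a pseudocount of 0.1 FPKM, no filter or a mean of at least 1 FPKM, 3 scalings, the replicate number as a block, other rhythm tests and leaving out each library. Those added after the data were seen were omission of 3 libraries in which Saa1 exceeded 10000 FPKM, removal of the trend with exonic length, sample weights, and tests at single time points.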

Additional observations from a re-analysis of the deposited data

Results flagged for a closer look

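The Cd74 level of IH ZT4 replicate 2, 66.3 FPKM, lay far above the other 5 IH libraries of ZT4 and ZT8, the next of which was at 42.6 FPKM. The gap took 0.68 of the whole range, beyond Dixon's 95% limit for 6 samples. Chance gives such a gap in about 1 of 20 groups, and 36 highest and lowest values were looked at.

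The estimates of Ptprc had opposite signs at ZT20 and ZT12, and neither passed the adjusted threshold in the limma fit of single time points. The 3 IH libraries were all above control at ZT20, where the difference was 0.15 on the log2(FPKM + 1) scale. Its 95% interval was -0.07 to 0.37 (unadjusted P = 0.17). At ZT12 they were all below control, where the difference was -0.30 (95% interval -0.52 to -0.08, adjusted p = 0.1). Without control ZT12 replicate 2 it was -0.13 (adjusted p = 0.57). Of all genes, 11.8% had the IH libraries all above control at ZT20, and 6.74% had them all below at ZT12. The gap between the groups at ZT20 was 0.6701 against 0.6697 FPKM. The difference between these time points was not tested by itself. The interaction of condition with the cosine gave an unadjusted P of 0.028 and an adjusted p of 0.92 for Ptprc in limma, over 36 libraries.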

How the results depend on the processing

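The level tests over all time points, at ZT4 and ZT8 and at each time point alone, and the test of a difference in rhythm, called 0 of the 9 genes in limma under each alternative run. For the level over all time points the estimates of 7 genes stayed below 0 under each alternative. Marco went from -0.18 to 0.057 without the 3 libraries in which Saa1 exceeded 10000 FPKM and to 0.063 with sample weights, and ranged from -0.26 to 0.044 (without control ZT12 replicate 2) when single libraries were left out. Cd74 went from -0.13 to 0.088 with sample weights. At ZT8 alone Cd68 differed by 0.083, from -0.16 at ZT4 and ZT8 together.

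The count of rhythmic genes was the result that moved. In control it was 0, and 1 (Cd5l) with sample weights, where the share of all genes called rose from 20.0% to 35.6%. In IH it was 1, and it was 0 with a mean of at least 1 FPKM (a filter that Ptprc did not pass), with quantile normalization, without the 3 libraries of high Saa1 and with a shared spread. It was 4 with sample weights (50.0% of all genes) and 3 at an adjusted p of 0.05 (47.9% of all genes), from 39.9% of all genes. Leaving out single IH libraries gave 0 to 3. With the F test of time as a factor of 6 levels the count in IH stayed at 1, but the gene called was Marco and not Ptprc. Apart from that filter and the removal of libraries, the cause was not tested.

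Deviations of same-numbered IH and control libraries correlated by 0.05 on average (-0.18 to 0.29, over 0.1 in 6 of 18 pairs), so the numbers were not taken as pairs. With the replicate block the counts stayed at 0, 0, 0, 1 and 0 for level, ZT4 and ZT8, rhythm in control, rhythm in IH and difference in rhythm.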
